A study of Homo sapiens with 66 samples.

Results

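The 34 genes described here encode the Ran cycle (RAN, RCC1, RANGAP1, RANBP1, RANBP3, RANGRF and NUTF2), importin alpha (KPNA1 to KPNA7), importin beta and related import receptors including the transportins (KPNB1, TNPO1, TNPO2, TNPO3, IPO4, IPO5, IPO7, IPO8, IPO9, IPO11, IPO13 and RANBP6), and the exportins (XPO1, XPO4, XPO5, XPO6, XPO7, XPOT, CSE1L and RANBP17). They were listed by symbol and matched to 1 gene each among the 58051 genes that were counted in every library, and 33 of them were among the 17812 genes with enough counts to be tested. KPNA7, an importin alpha, was not: it had 0 to 0.42 CPM (counts scaled to the library total) in all libraries.

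Ran is a small GTPase that shuttles between nucleus and cytoplasm. RCC1, bound to chromatin, loads Ran with GTP, and RANGAP1, held at the cytoplasmic face of the nuclear pore by SUMO and RANBP2, makes Ran hydrolyse it, so that RanGTP is high inside the nucleus and low outside. Importins release their cargo when they meet RanGTP in the nucleus, exportins carry theirs only together with RanGTP, and NUTF2 brings RanGDP back into the nucleus.

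The 66 libraries, in 22 groups of 3, hold total RNA of DLD-1, an established line from a human colorectal adenocarcinoma. In each tagged line both copies of one gene carry an auxin-inducible degron (AID), which has the protein degraded once auxin (1 mM) is added. The comparison that bears most directly on these genes used RANGAP1-AID cells, labelled GAP1-NeonGreen-AID, left untreated or given auxin for 2 h or 8 h, and it asks whether RNA levels change once Ran-dependent traffic through the pore is disturbed. The other groups were AID-TPR cells (AID-NeonGreen-TPR) untreated and after 2 h, a second set of AID-TPR libraries with the word old in their labels untreated and after 2 h and 8 h, AID-TPR cells with Actinomycin D (ActD, an inhibitor of transcription) with and without auxin for 2 h, NUP153-AID cells (NUP153-NeonGreen-AID) untreated and after 2 h and 8 h, NUP50-AID cells (NUP50-NeonGreen-AID) untreated and after 3 h and 9 h, AID-NXF1 cells (AID-FLAG-NXF1) untreated and after 2 h, AID-GANP cells (AID-HA-GANP1) untreated and after 3 h, and the parental line, without a tag, with labels of untreated or of auxin for 2 h.

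TPR, NUP153 and NUP50 form the basket of the nuclear pore, and NXF1 and GANP export mRNA. All tagged lines also express TIR1, the plant protein that recognises the tag, from a cassette placed at the end of RCC1, a gene described here, and the parental line has no such cassette. Edited clones were checked by PCR, and how many clones make up a line was not stated in the sources used here. Every value below is a level in whole cells, and in such bulk RNA a lower level per cell cannot be told apart from fewer cells that express the gene. The 3 replicates of a group are described as independent biological ones.

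The libraries held 18943661 to 55411411 counts each, and the 9 RANGAP1-AID libraries 28208309 to 42107386. Epithelial markers were present throughout, with KRT8 at 2353 to 7700 CPM, EPCAM at 338 to 734 CPM and VIL1 lower at 1.34 to 29.6 CPM, while PTPRC, COL1A1, COL1A2 and PECAM1, markers of blood, connective tissue and endothelium, did not exceed 1.75 CPM. CYP1A1, which rose with auxin at the shortest time in every tagged line without ActD, went against the DLD-1 labels: it was at 14.5, 14.0 and 9.55 CPM in the libraries labelled auxin and at 201, 179 and 171 CPM in those labelled untreated. Directions drawn from the parental line therefore rest on labels in doubt.

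By their counts the libraries fell into 3 sets, which limits what can be said of some of these genes. The labels do not say what sets them apart, and whether it was the way of counting reads was not tested. The 24 libraries of DLD-1, AID-TPR, AID-NXF1 and AID-GANP had 0 mitochondrial counts, the 33 libraries labelled old or ActD or of NUP153-AID and NUP50-AID had mitochondrial counts and 0 counts on RMRP, and the 9 RANGAP1-AID libraries had counts on both. RANGRF, which encodes MOG1, a small protein that binds Ran and helps it release its nucleotide, overlaps SLC25A35 on the opposite strand. In the 33 libraries of the first kind and of RANGAP1-AID the counts of SLC25A35 were 0.997 to 1.11 times those of RANGRF, which stood at 10.0 to 19.7 CPM, and in the other 33 libraries RANGRF was at 1.2 to 4.70 CPM. IPO4, an import receptor, showed the same with an overlapping gene, ENSG00000259522, whose counts were slightly above its own (1.04 times or more) in the former and at most 0.0462 times in the latter. In the libraries of the first kind and of RANGAP1-AID the reads of RANGRF and IPO4 cannot be told apart from those of their neighbours. For KPNA1 the counts of the overlapping WDR5B-DT were 0.388 to 0.481 times its own there. In the remaining libraries IPO4 was at 3.36 to 7.83 CPM, against 149 to 233 CPM in the first kind and 162 to 181 CPM in RANGAP1-AID. Its values in those remaining libraries are thus not taken as the level of the gene. Differences in the levels of RANGRF, IPO4 and KPNA1 between the 3 sets are therefore not read as differences between lines. RANGAP1 is set against all other libraries below, and there too line and set coincide.

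In untreated RANGAP1-AID cells the genes spanned a wide range of levels per length (FPKM, computed here from the counts, the gene's exon length and the library's total). RAN stood highest at 187 ± 14.8 FPKM (SD, n = 3), and CSE1L, the exportin that returns importin alpha to the cytoplasm, followed at 129 ± 16.6. KPNB1, the importin beta that pairs with importin alpha, was at 105 ± 8.58 and IPO7 at 78.6 ± 8.40. The lowest of the 33 tested genes were KPNA5 at 1.11 ± 0.155 and RANBP17, a receptor related to XPO7, at 1.39 ± 0.121. RANGAP1 itself ranked 20 of 34, at 17.0 ± 1.01 FPKM, next to XPO5 and KPNA4. Of the 33 pairs of neighbours in this order, 19 overlapped in their library values, so that the order is open within stretches such as CSE1L and KPNB1 at the top.

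**Figure D1:**
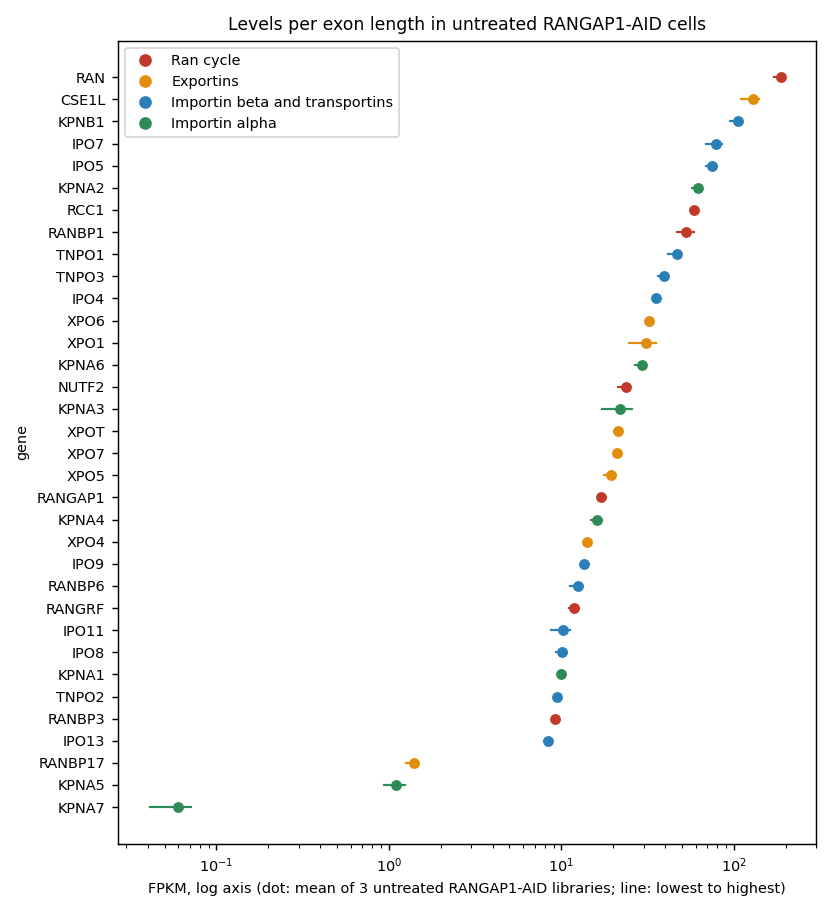
Levels of the 34 genes in the 3 untreated RANGAP1-AID libraries, in FPKM on a log axis, from highest to lowest, with dots for means and lines from the lowest to the highest library. RAN sits at the top at 187 FPKM, KPNA5 and RANBP17 lie near 1 FPKM and KPNA7 at 0.06 FPKM.

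The transcript of the tagged gene was measured first. RANGAP1 (chr22:41244779-41286187, GRCh38, minus strand) was at 99.7, 102 and 112 CPM in the untreated RANGAP1-AID libraries, at 94.8, 97.5 and 107 CPM after 2 h of auxin, and at 106, 109 and 120 CPM after 8 h. These libraries overlap between the groups, and the log2 change was -0.04 at 2 h (95% interval -0.19 to 0.12, adjusted p = 1) and 0.13 at 8 h (-0.00 to 0.27, adjusted p = 0.187, edgeR's quasi-likelihood test with adjustment over all tested genes). The degron acts on the protein, and the transcript therefore does not show whether RANGAP1 was lost.

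In all 9 RANGAP1-AID libraries, treated or not, the RANGAP1 transcript was below that in every other library. The values were 94.8 to 120 CPM (median 106) against 184 to 398 CPM (median 262) in the other 57, a ratio of medians of 0.403. Among the tested genes 1.28% (228 genes) had all RANGAP1-AID libraries below all others, and of the members 1 of 33 did, RANGAP1. No other line carries a tag in this gene, but the RANGAP1-AID libraries also form a set of their own by their counts. The line and the set cannot be told apart here.

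**Figure D2:**
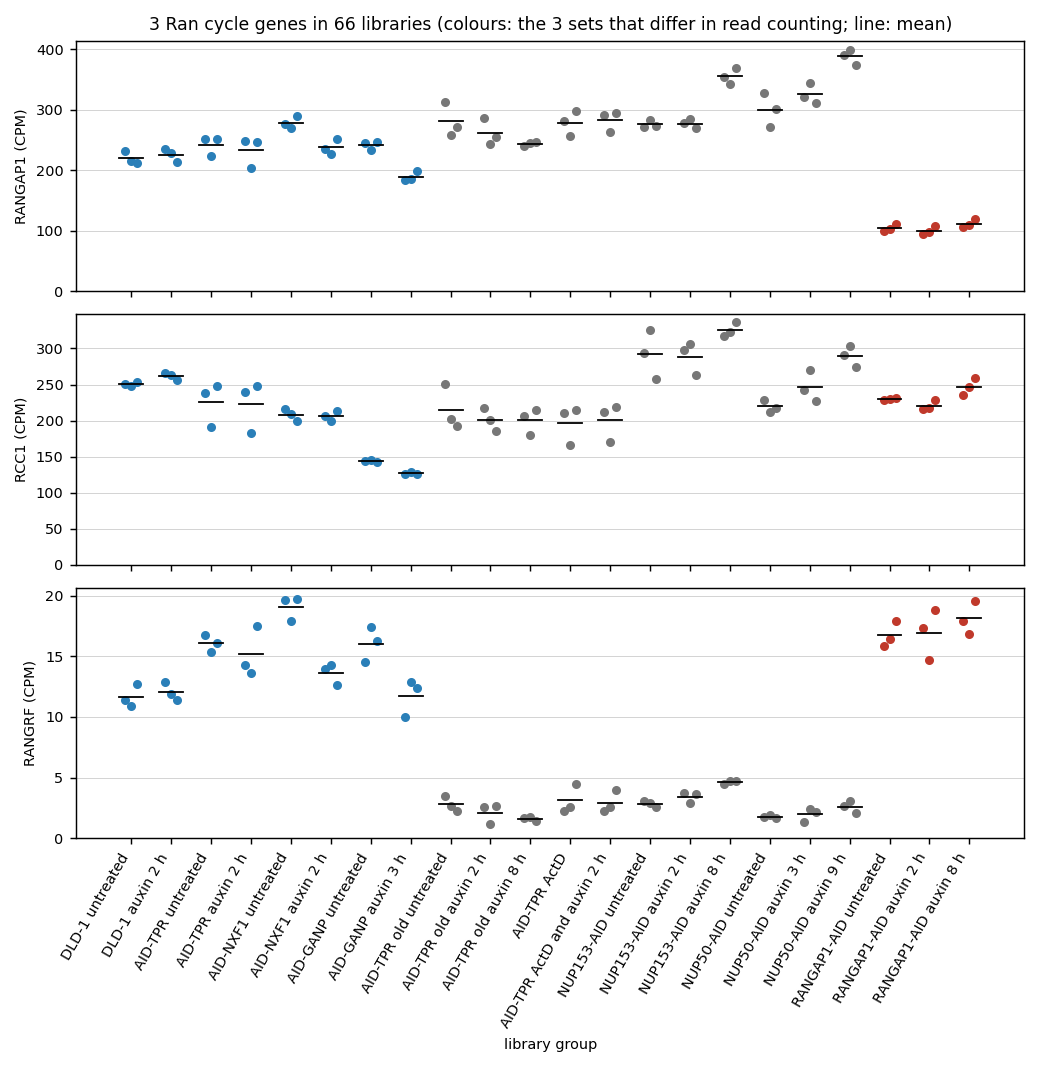
CPM of RANGAP1, RCC1 and RANGRF in each library of the 22 groups, coloured by the 3 sets into which the libraries fell by their counts, with lines for group means. RANGAP1 lies below 120 CPM in the 9 RANGAP1-AID libraries and above 184 CPM elsewhere. RANGRF lies at 1.2 to 4.70 CPM in the libraries labelled old or ActD or of NUP153-AID and NUP50-AID.

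After 2 h without RANGAP1 none of the 33 genes passed. A gene was called when its adjusted p was under 0.05 and its fold at least 1.3 or at most 0.7. The count was 0 of 33 by edgeR and by DESeq2, 0 had an unadjusted p under 0.05 (7.28% of all genes did), and 0.589% of the tested genes were called. Log2 changes ran from -0.18 for RANBP6 to 0.36 for KPNA5, and the lowest adjusted p was 0.792. With the replicate number as a block, which these libraries support, KPNA5 (0.36, adjusted p = 0.00299) and RANBP6 (-0.19, adjusted p = 0.0268) passed on p without reaching the fold for a call, 2 of 33 (6.06%) where 8.1% of all genes passed in that fit.

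After 8 h of auxin, 3 genes were called in RANGAP1-AID cells, and all of them were import genes that rose: TNPO2, KPNA5 and KPNA4. A further 4 rose on p alone, TNPO1, TNPO3, XPO5 and KPNA1. No parental libraries had auxin for 8 h, so long auxin exposure, time in culture and loss of RANGAP1 cannot be told apart here. All 7 genes of the Ran cycle, RAN, RCC1 and RANGAP1 included, lacked a change that passed. The 3 called genes are 9.09% of the 33, where 14.9% of all tested genes were called, and the 7 that passed on p are 21.2%, where 26.7% of all did. All 7 were higher (13.6% of the tested genes were higher and 13% lower), and the median log2 change was 0.08 over the 33 and -0.01 over all genes. As a share of the list, then, changes were near or under the background. In a fit with the replicate number as a block 16 passed on p (48.5%, where 48.2% of all genes did), 14 higher and 2 lower, and the same 3 were called.

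Transportins carry proteins with a nuclear localisation signal rich in proline and tyrosine, among them many RNA-binding proteins, into the nucleus without importin alpha. TNPO2 (chr19:12699201-12724011, minus strand) was at 67.6, 64.5 and 66.6 CPM untreated, at 65.5, 70.3 and 77.3 CPM after 2 h and at 106, 109 and 109 CPM after 8 h. The 8 h libraries were all above the other 6, while those of 2 h and untreated cells overlapped. The log2 change at 8 h was 0.75 (SE 0.06), a fold of 1.68 (adjusted p = 3.2e-05). TNPO1, its close relative, went from 542, 646 and 650 CPM to 668, 737 and 795 CPM, a log2 change of 0.30 (SE 0.09, adjusted p = 0.0373). TNPO3, which imports splicing factors rich in serine and arginine, went from 188, 192 and 170 CPM to 214, 222 and 206 CPM, a log2 change of 0.26 (SE 0.08, adjusted p = 0.0272). In both, every 8 h library was above every untreated one.

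The promoters of the 3 transportin genes are shown because these genes rose in the same comparison. Each window is from RefSeq (GRCh38.p14), runs from 250 bases before to 50 bases after the annotated start, and is printed 5′ to 3′ on the gene's strand. Capitals mark CCAAT and CACGTG, which were searched on both strands. The windows are chr5:72816411-72816710 (plus strand) for TNPO1, chr19:12723883-12724182 (minus strand) for TNPO2 and chr7:129055062-129055361 (minus strand) for TNPO3.
TNPO1: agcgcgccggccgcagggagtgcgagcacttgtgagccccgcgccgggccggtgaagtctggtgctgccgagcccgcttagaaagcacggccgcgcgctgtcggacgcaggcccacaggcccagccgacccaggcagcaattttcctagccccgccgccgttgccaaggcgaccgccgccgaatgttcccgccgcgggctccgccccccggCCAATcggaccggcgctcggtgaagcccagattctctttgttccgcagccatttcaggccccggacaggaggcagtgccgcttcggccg
TNPO2: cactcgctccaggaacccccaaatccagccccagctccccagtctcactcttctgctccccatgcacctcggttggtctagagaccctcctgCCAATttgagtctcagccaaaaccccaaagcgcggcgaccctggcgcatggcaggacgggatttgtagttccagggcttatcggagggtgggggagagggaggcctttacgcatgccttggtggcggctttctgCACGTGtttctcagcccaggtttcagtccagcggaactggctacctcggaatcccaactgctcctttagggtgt
TNPO3: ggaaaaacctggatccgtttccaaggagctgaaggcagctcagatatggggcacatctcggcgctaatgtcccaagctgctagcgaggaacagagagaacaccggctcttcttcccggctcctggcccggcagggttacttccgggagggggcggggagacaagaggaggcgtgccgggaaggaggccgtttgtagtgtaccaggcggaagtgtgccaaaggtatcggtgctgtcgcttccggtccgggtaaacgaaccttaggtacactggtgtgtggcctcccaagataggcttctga
TNPO1 and TNPO2 each had a second annotated start, whose window held none of the motifs searched.

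TNPO2 held CCAAT at 158 bases and CACGTG at 24 bases before its start, TNPO1 held CCAAT at 39 bases before, and neither was in the TNPO3 window. CACGTG, the core of the E-box that MYC and its relatives bind, was in 7.26% of all 35116 windows and in 7 of the 36 windows (19.4%) of the 28 members that have one: IPO4, IPO7, KPNA3, RAN, RCC1, TNPO2 and XPO1. CCAAT was in 34.6% of all windows and 36.1% of the members', TTTGAA in 15.2% and 16.7%, and the NRF1 motif in 1.24% and 2.78%. Of the 7 genes with CACGTG, TNPO2 was called after 8 h and 6 were not, while the called KPNA4 and KPNA5 had no window to search.

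Importin alpha proteins read the classical nuclear localisation signal and hand the cargo to KPNB1. KPNA4 (chr3:160495007-160565571, minus strand) was at 203, 234 and 225 CPM untreated, 207, 244 and 262 CPM after 2 h and 281, 301 and 301 CPM after 8 h, a log2 change at 8 h of 0.46 (SE 0.08, fold 1.37, adjusted p = 0.00176). KPNA5 (chr6:116681187-116741867, plus strand), expressed at a low level, was at 10.8, 13.4 and 14.3 CPM, then 11.6, 17.3 and 19.6 CPM, then 18.7, 23.9 and 26.9 CPM. Its log2 change at 8 h was 0.89 (SE 0.14, fold 1.85, adjusted p = 0.00136), the largest among the 33 genes. In both genes each 8 h library was above all untreated ones, and the 8 h libraries of KPNA5 overlapped with those of 2 h. SCARNA7, a small RNA that lies within KPNA4 on its strand, was at 66.7 to 73.8 CPM untreated and 55.0 to 79.4 CPM at 8 h, with the groups overlapping.

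The other importin alpha genes moved less. KPNA1 went from 81.9, 87.2 and 85.2 CPM to 90.7, 98.9 and 101 CPM, a log2 change of 0.23 (SE 0.07, adjusted p = 0.0311), and part of its reads may belong to the overlapping gene named above. KPNA3 had a log2 change of 0.34 (SE 0.13, adjusted p = 0.0845) and did not pass, but it passed on p in DESeq2 and with the replicate number as a block (0.35, adjusted p = 1.75e-09). KPNA2, whose transcript is known to follow the cell cycle, was at 482, 470 and 423 CPM untreated and 460, 457 and 429 CPM at 8 h, a log2 change of 0.01 (95% interval -0.14 to 0.16). Of 6 tested importin alpha genes, then, 3 rose and none fell without the block.

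The import receptors outside the transportins stayed closer to 0. KPNB1 was at 1151, 1114 and 982 CPM untreated and 1224, 1222 and 1162 CPM at 8 h, a log2 change of 0.19 (SE 0.08, adjusted p = 0.116), and IPO13 went from 42.6, 40.1 and 43.6 CPM to 49.2, 43.9 and 48.5 CPM, a change of 0.21 (SE 0.07, adjusted p = 0.0514). In both genes every 8 h library was above every untreated one, and both passed with the replicate number as a block. In IPO9 every 8 h library was below every untreated one. How many of all tested genes had groups without overlap was not counted, here or elsewhere between groups of 3 libraries. IPO4, IPO5, IPO7, IPO8, IPO9 and IPO11 had log2 changes of -0.08 to 0.02, none of which passed, and RANBP6 one of -0.22 (SE 0.09, adjusted p = 0.103), which passed with the replicate number as a block (adjusted p = 0.00019). Of the 12 genes of this group, then, the 3 transportins passed without the block and 9 others did not, with a median change of 0.02.

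Of 8 exportin genes, 1 passed. XPO5, which exports the precursors of microRNAs, rose from 176, 165 and 150 CPM to 207, 198 and 185 CPM, a log2 change of 0.30 (SE 0.08, adjusted p = 0.021). POLR1C, which overlaps it on the opposite strand, was at 57, 54.5 and 46.7 CPM untreated and 71.9, 63.9 and 57.1 CPM at 8 h. XPO1, the exportin for proteins with a leucine-rich signal, gave the lowest value of the 33. It was at 586, 786 and 843 CPM untreated and 499, 609 and 617 CPM at 8 h, libraries that overlap, and its log2 change of -0.32 (SE 0.13, adjusted p = 0.0947) did not pass, while it passed on p in DESeq2 and with the replicate number as a block (-0.31, adjusted p = 4.68e-08). CSE1L did not differ detectably, at -0.01 (95% interval -0.20 to 0.18), and XPO4, XPO6, XPO7, XPOT and RANBP17 lay between -0.03 and 0.15 without passing.

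In the Ran cycle, RAN (chr12:130872037-130877678, plus strand) was at 905, 919 and 793 CPM untreated, 966, 901 and 814 CPM at 2 h and 1001, 948 and 907 CPM at 8 h, a log2 change at 8 h of 0.17 (95% interval -0.00 to 0.33, adjusted p = 0.182). RCC1 (chr1:28505943-28539300, plus strand) was at 228, 230 and 231 CPM untreated, 216, 218 and 229 CPM at 2 h and 236, 247 and 258 CPM at 8 h, a change of 0.15 (0.02 to 0.27, adjusted p = 0.114). RANBP1, RANBP3, NUTF2 and RANGRF lay between -0.01 and 0.16 at 8 h and did not pass. All 3 RCC1 libraries of 8 h were above the untreated ones, by a small margin. RAN, RCC1, RANGAP1 and NUTF2 did pass on p at 8 h with the replicate number as a block, with log2 changes of 0.13 to 0.17, too small for a call. The interval for RAN thus reached no higher than 0.33 on the log2 scale.

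**Figure D3:**
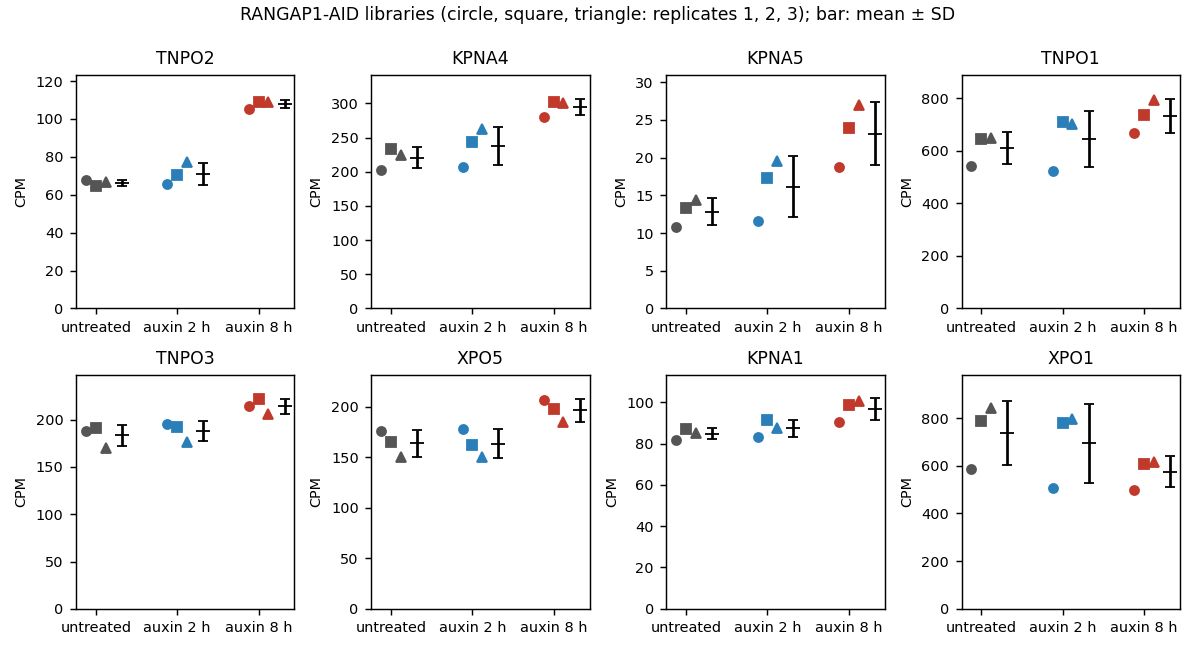
CPM of 8 genes in the 9 RANGAP1-AID libraries, untreated and after 2 h and 8 h of auxin, each point a library and each bar the mean ± SD. TNPO2 rises to 106 to 109 CPM at 8 h, above all other libraries, and XPO1 shows the opposite order with groups that overlap.

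Leaving out any 1 of the 6 libraries kept TNPO2, KPNA4 and KPNA5 called at 8 h, with adjusted p of at most 0.000741, 0.0145 and 0.00955. The 4 genes that passed on p alone were less firm. XPO5 was lost without 8 h replicate 1 or 2 (adjusted p up to 0.0844), TNPO3 without 8 h replicate 1 or 2 or untreated replicate 3 (up to 0.121), TNPO1 without 8 h replicate 2 or 3 or untreated replicate 1 (up to 0.121), and KPNA1 without 8 h replicate 2 or 3 or untreated replicate 1 or 3 (up to 0.122). By library sizes alone KPNA1 (adjusted p = 0.0553) and TNPO1 were lost, and TNPO1 also in 1 fit over all 9 RANGAP1-AID libraries (up to 0.0882). Without untreated replicate 3, KPNA3 was called too.

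Between 2 h and 8 h of auxin, TNPO2 was the only gene called, 1 of 33 (3.03%) where 8.8% of all tested genes were, and 2 passed on p where 15.2% of all did. It rose by a log2 change of 0.61 (SE 0.08, fold 1.52, adjusted p = 0.000717), and KPNA4 by 0.31 (SE 0.09, adjusted p = 0.0383), under the fold for a call. KPNA5, at 0.53, had an adjusted p of 0.07. Blocked on the replicate number, KPNA5 joined TNPO2 among the calls (adjusted p = 1.72e-07, with 11.9% of all genes called) and 12 genes passed on p (36.4%, where 37.2% of all did). KPNA4 was lost without any 1 of the 6 libraries other than 2 h replicate 3 (adjusted p up to 0.148), and without that library all 3 were called. This comparison and those against untreated cells share libraries.

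Genes known to work with this set were measured beside it, after 8 h. Of 13 tested genes for other carriers and Ran-binding proteins, 3 rose and 1 fell on p, and none was called. Of 10 mitotic genes 2 rose and 2 fell, AURKA among them as the only call (-0.61), and of 8 MYC and growth genes 3 rose and none fell, with NOP56 (0.49) and ODC1 (0.44) called. Of 7 epithelial markers CDX2 was called (1.00) and EPCAM fell on p. The part of the cell cycle, of growth or of differentiation in the values above was not tested.

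The 2 mRNA export lines gave a different set of changes. In AID-GANP cells after 3 h of auxin, RANBP6 and TNPO2 were called, and both fell, while 11 others passed on p alone. That is 2 of 33 called (6.06%) where 15.5% of all tested genes were, and 13 on p (39.4%) where 28.9% were. Of the 13, 9 were higher (10.2% of all genes were) and 4 lower (18.7% of all). This split depends on the scaling: by library sizes alone 0 passed as higher and 8 as lower. That scaling moved the median change of all genes from 0.01 to -0.09. Under it only RANBP6, TNPO2, RANGAP1 and RANGRF of the 13 kept their p, and the 9 higher genes stayed positive without passing.

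RANBP6, an importin of the IPO5 family encoded at chr9:6011025-6015625 (minus strand), fell from 78.2, 72.9 and 71.6 CPM to 41.9, 35.2 and 29.7 CPM, a log2 change of -0.95 (SE 0.11, fold 0.52, adjusted p = 9.02e-05). TNPO2 fell from 75.3, 69.1 and 62.4 CPM to 41.2, 43.8 and 40.6 CPM, a log2 change of -0.61 (SE 0.08, fold 0.66, adjusted p = 0.000199). In both genes the auxin libraries lay below all untreated ones by a wide margin. Leaving out any 1 library kept both calls.

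The 9 genes that were higher on p in AID-GANP cells after TMM scaling were XPO4, IPO5, IPO11, IPO7, KPNA3, XPO6, CSE1L, RAN and XPO7, with log2 changes of 0.21 to 0.34. XPO4, the highest, was called without 3 h replicate 2 or 3 or untreated replicate 1, and lost its p without any of the other 3 libraries (adjusted p up to 0.113). IPO5 (0.28) kept its p without any 1 library. RAN (0.23, adjusted p = 0.0274) kept it only without 3 h replicate 2 (up to 0.103 otherwise). RANGAP1 fell by 0.24 on the log2 scale (adjusted p = 0.0265), kept only without 3 h replicate 3 (up to 0.122 otherwise), and RANGRF fell by 0.35 (adjusted p = 0.0461), lost without 3 h replicate 1 or 3 or untreated replicate 2 or 3 (up to 0.169). Blocked on the replicate number, 24 passed on p (72.7%, where 52.6% of all genes did), 17 higher and 7 lower, and the calls were again RANBP6 and TNPO2. NXT1, the partner of NXF1, was the only called gene (-0.74) among the other carriers here.

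In AID-NXF1 cells after 2 h, none of the 33 reached the fold for a call by edgeR or DESeq2. By edgeR 8.16% of all tested genes were called. An unadjusted p under 0.05 was found for 15 of the 33, where 35.4% of all genes had one. On adjusted p 9 passed (27.3%, with 21.5% of all genes), 3 higher (7.41% of all) and 6 lower (14.1% of all). RANBP6 fell by 0.45 (SE 0.08, adjusted p = 0.00149), from 50.8, 55.7 and 61.8 CPM to 41.3, 35.3 and 41.6 CPM. TNPO2 fell by 0.28 (adjusted p = 0.00828), from 57.4, 58.2 and 57.6 CPM to 45.2, 41.2 and 50.4 CPM. In both the auxin libraries lay below every untreated one, and both kept their p without any 1 library. In 1 fit over all libraries without ActD TNPO2 lost it (adjusted p = 0.205), as did 6 others of the 9, and RANBP6 and RANGRF kept it. RANGRF fell by 0.43 (adjusted p = 0.00373), from 19.7, 17.9 and 19.7 CPM to 13.9, 14.3 and 12.6 CPM, and SLC25A35, with which it shares reads, from 19.6, 18.3 and 20.1 CPM to 14.0, 14.3 and 13.1 CPM.

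KPNA4 and TNPO1 (both -0.22) and RANGAP1 (-0.17) were the other lower genes in AID-NXF1 cells, and NUTF2 (0.19), RANBP1 (0.18), which helps RANGAP1 act on Ran, and CSE1L (0.18) the higher ones. By library sizes alone none was higher and 7 were lower, so the 3 higher genes lost their p under that scaling. They also lost it without auxin replicate 1 or 2 or untreated replicate 2 or 3 (adjusted p up to 0.142), CSE1L without untreated replicate 1 too. Of the lower genes, KPNA4 was lost without untreated replicate 2 (0.059), TNPO1 without auxin replicate 2 or untreated replicate 1 or 2 (up to 0.0966), and RANGAP1 without any library but auxin replicate 3 (up to 0.12). In the fit with the replicate number as a block 18 passed on p (54.5%, where 39% of all genes did), 11 higher and 7 lower, none called.

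**Figure D4:**
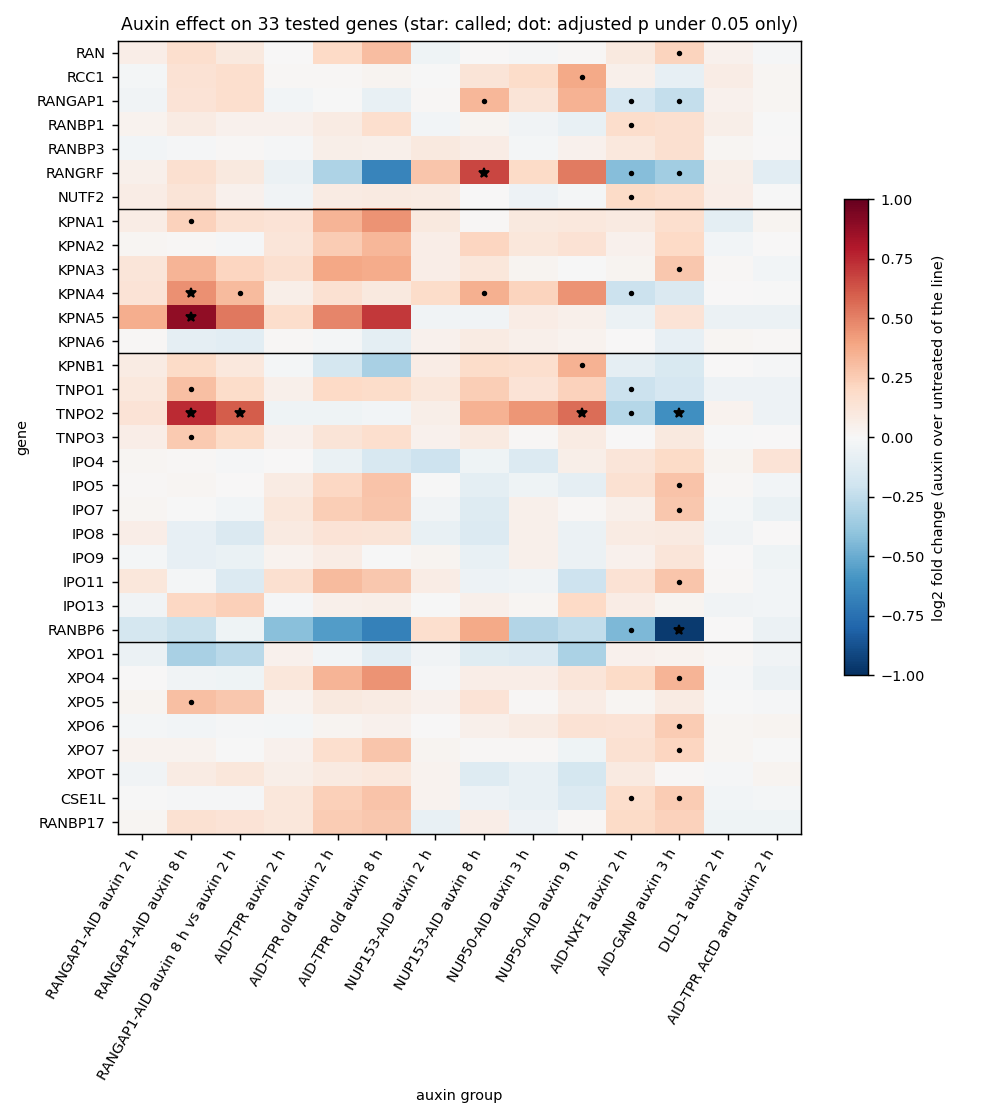
Log2 change of the 33 tested genes (rows) in 14 comparisons with auxin (columns), where a star marks a call and a dot an adjusted p under 0.05 alone. TNPO2 is higher in RANGAP1-AID cells at 8 h (0.75) and NUP50-AID cells at 9 h (0.56) and lower in AID-GANP cells (-0.61), and RANBP6 is lowest in AID-GANP cells (-0.95).

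Few of these genes were called in the lines that lose a basket nucleoporin. In NUP153-AID cells at 8 h and NUP50-AID cells at 9 h the share passing on p exceeded that of all genes. In AID-TPR cells after 2 h, 0 of 33 were called by edgeR or DESeq2 (0.511% of all genes were). An unadjusted p under 0.05 was found for 1 of them, where 9.43% of all genes had one. The lowest value was that of RANBP6 at -0.42, which passed with the replicate number as a block (-0.41, adjusted p = 3.02e-08). It was 1 of 3 members (9.09%) that did, where 11.1% of all genes passed. The old AID-TPR libraries gave 0 calls among the 33 after 2 h by either tool (0.455% of all genes). There 4 members had an unadjusted p under 0.05, where 12.1% of all genes did. After 8 h 0 were called by edgeR, where 3.61% of all genes were, although DESeq2 called 3, KPNA1, KPNA5 and RANBP6. An unadjusted p under 0.05 was found for 12 of the 33, where 24.2% of all genes had one. RANBP6 was at -0.56 and -0.68 in these comparisons, which share their untreated libraries, and neither value passed in edgeR. Without 8 h replicate old2, 5 genes were called at 8 h, KPNA1, KPNA2, KPNA5, RANBP6 and XPO4. The share of all genes called in that refit is not reported here. With ActD, auxin gave 0 calls among the 33 by either tool and 0% among all tested genes. In that comparison 0 members had an unadjusted p under 0.05, where 0.438% of all genes did.

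In NUP153-AID cells 0 of 33 were called after 2 h by either tool (0.0393% of all genes). At that time 1 member had an unadjusted p under 0.05, where 3.74% of all genes did. With the replicate number as a block KPNA4 passed on p at 2 h (0.18, adjusted p = 0.0151), 1 of 33 (3.03%) where 2.59% of all genes did. After 8 h RANGRF was the only call, 1 of 33 (3.03%) where 1.34% of all were. On adjusted p 3 passed (9.09%) where 1.92% of all did. An unadjusted p under 0.05 was found for 8 of the 33, where 13.8% of all genes had one. RANGRF (chr17:8288654-8290092, plus strand) rose from 3.04, 2.95 and 2.57 CPM to 4.48, 4.70 and 4.70 CPM, a log2 change of 0.67 (SE 0.14, fold 1.59, adjusted p = 0.0398), at a level of a few CPM. SLC25A35 was at 1.56, 1.02 and 0.857 CPM untreated and 1.39, 1.82 and 1.48 CPM at 8 h. The RANGRF call was lost without any 1 of the 6 libraries other than 8 h replicate 1 (adjusted p up to 0.148).

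KPNA4 (0.35, adjusted p = 0.041) and RANGAP1 (0.33, adjusted p = 0.0217) also passed on p in NUP153-AID cells at 8 h. KPNA4 went from 194, 208 and 189 CPM to 235, 252 and 285 CPM and RANGAP1 from 270, 283 and 273 CPM to 354, 343 and 369 CPM, with no overlap. KPNA4 was lost without any library but 8 h replicate 1 (adjusted p up to 0.169), RANGAP1 without 8 h replicate 2 or 3 or untreated replicate 1 or 2 (up to 0.11). In the same comparison 9 of 10 mitotic genes rose on p and 5 were called, CDC20 (0.49) and PLK1 (0.52) among them, with a list median of 0.42 against 0 over all genes, and their part in the values of KPNA4 and RANGAP1 was not tested. KPNA2 did not pass here.

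In NUP50-AID cells 0 of 33 were called after 3 h by either tool (0.219% of all genes). At that time 5 members had an unadjusted p under 0.05, where 6.13% of all genes did. After 9 h TNPO2 was called, 1 of 33 (3.03%) where 0.371% of all were. RCC1 and KPNB1 passed on p beside it, 3 in all (9.09%) where 0.528% of all did. An unadjusted p under 0.05 was found for 14 of the 33, where 16.5% of all genes had one. TNPO2 went from 50.9, 38.1 and 40.6 CPM to 71.3, 64.0 and 58.2 CPM, a log2 change of 0.56 (SE 0.11, fold 1.47, adjusted p = 0.0478). RCC1 went from 229, 212 and 218 CPM to 291, 303 and 275 CPM, a change of 0.38 (adjusted p = 0.0226), and KPNB1 from 870, 834 and 823 CPM to 1100, 1111 and 1051 CPM, a change of 0.35 (adjusted p = 0.0226). In all 3 genes the groups did not overlap. The TNPO2 call was lost under RLE scaling and under both other filters on low counts (adjusted p up to 0.057), and KPNB1 in 1 fit over all libraries without ActD (0.0893). Comparisons at 3 h and 9 h share the untreated libraries, as do those of NUP153-AID at 2 h and 8 h. All 3 genes were lost without 9 h replicate 1 or 2 or untreated replicate 2 or 3, TNPO2 with an adjusted p of up to 0.266, RCC1 up to 0.235 and KPNB1 up to 0.231. Without 9 h replicate 3, on the other hand, 3 genes were called (KPNA4, RCC1 and TNPO2), and without untreated replicate 1 there were 4. The shares of all genes called in these refits are not reported here.

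In parental cells, 0 of the 33 were called between the libraries labelled auxin and untreated by either tool (0.0561% of all genes were). An unadjusted p under 0.05 was found for 0 of them, where 3.13% of all genes had one. Log2 values lay between -0.10 and 0.07, a range narrower than in any comparison of a tagged line without ActD. The doubt about the labels bears on the sign of these values and not on their size. The parental libraries cover 2 h only, so auxin alone for 8 h or 9 h was not measured.

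Whether a change in RANGAP1-AID cells differed from that in another line was tested directly, as the difference of the 2 changes. For TNPO2 at 2 h the RANGAP1-AID change exceeded that in AID-NXF1 cells by 0.42 (SE 0.10, adjusted p = 0.0193), and at 8 h it exceeded that in old AID-TPR cells by 0.77 (SE 0.21, adjusted p = 0.0316). At 2 h TNPO2 had no change that passed in RANGAP1-AID cells, while its log2 change in AID-NXF1 cells was -0.28. TNPO2 in the old AID-TPR libraries was at 70.8, 64.1 and 49.1 CPM untreated and 67.6, 42.4 and 55.2 CPM at 8 h. For KPNA5 at 8 h the change exceeded that in NUP153-AID cells by 0.94 (SE 0.17, adjusted p = 0.00195), where KPNA5 stayed at 32.8, 33.1 and 31.2 CPM untreated and 32.4, 33.2 and 31.4 CPM. KPNA5 kept this difference without any 1 of the 12 libraries (adjusted p up to 0.00803). In old AID-TPR cells at 8 h the log2 change of KPNA5 was 0.71 with the replicate number as a block. The numbers do not pair those libraries, so the block is not supported there. KPNA5 was called there by DESeq2 and not by edgeR without the block. Its change in RANGAP1-AID cells did not differ detectably from that in old AID-TPR cells.

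Other differences were less firm. RANBP6 at 8 h was lower in RANGAP1-AID cells than in NUP153-AID cells by 0.58 (SE 0.15, adjusted p = 0.0188). It went from 51.5, 60.5 and 61.0 CPM to 42.8, 49.9 and 51.5 CPM in the former and from 64.9, 64.0 and 49.3 CPM to 71.3, 85.8 and 78.8 CPM in the latter. This was lost without RANGAP1-AID 8 h replicate 1, RANGAP1-AID untreated replicate 2 or NUP153-AID 8 h replicate 2 (adjusted p up to 0.0558). TNPO2 against AID-NXF1 was lost without AID-NXF1 auxin replicate 1 or 2 or untreated replicate 2 (up to 0.0849), and against old AID-TPR in 9 of 12 cases (up to 0.0735), kept only without 8 h replicate old1 or old2 or untreated replicate old3.

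RANGRF also differed, by 0.49 against AID-NXF1 at 2 h (SE 0.14, adjusted p = 0.0466), 0.82 against old AID-TPR at 8 h (SE 0.23, adjusted p = 0.0329) and -0.49 against NUP153-AID at 8 h (SE 0.14, adjusted p = 0.0389). In RANGAP1-AID cells it was at 15.8, 16.4 and 17.9 CPM untreated and 17.9, 16.8 and 19.6 CPM at 8 h, with the groups overlapping and no change that passed. The last 2 compare libraries of different sets, with RANGRF reads shared in one and not in the other, and all 3 rested on single libraries. The first was kept only without RANGAP1-AID 2 h replicate 2 or untreated replicate 3 (adjusted p up to 0.116 otherwise), the second only without old AID-TPR 8 h replicate old2 or untreated replicate old2 or old3 (up to 0.095), and the last only without RANGAP1-AID 8 h replicate 3 or untreated replicate 1, or NUP153-AID 8 h replicate 1 or untreated replicate 1 (up to 0.104).

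Of the 33 genes, 2 differed between RANGAP1-AID and AID-NXF1 at 2 h (6.06%, with 8.14% of all genes), 2 between RANGAP1-AID and old AID-TPR at 8 h (6.06%, with 11.4%) and 3 between RANGAP1-AID and NUP153-AID at 8 h (9.09%, with 10.4%). At 2 h 0 differed from AID-TPR (0.298% of all), NUP153-AID (0.0842%) or the parental libraries labelled auxin (0.893%), by edgeR and DESeq2 and also at an unadjusted p under 0.05. With the replicate number as a block 10 differed from AID-NXF1 at 2 h (30.3%, where 24.2% of all genes did), among them KPNA4 (0.36), KPNA5 (0.43) and TNPO1 (0.32), and 2 from NUP153-AID (6.06%, where 1.69% of all did), KPNA5 (0.40) and RANBP6 (-0.36).

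**Figure D5:**
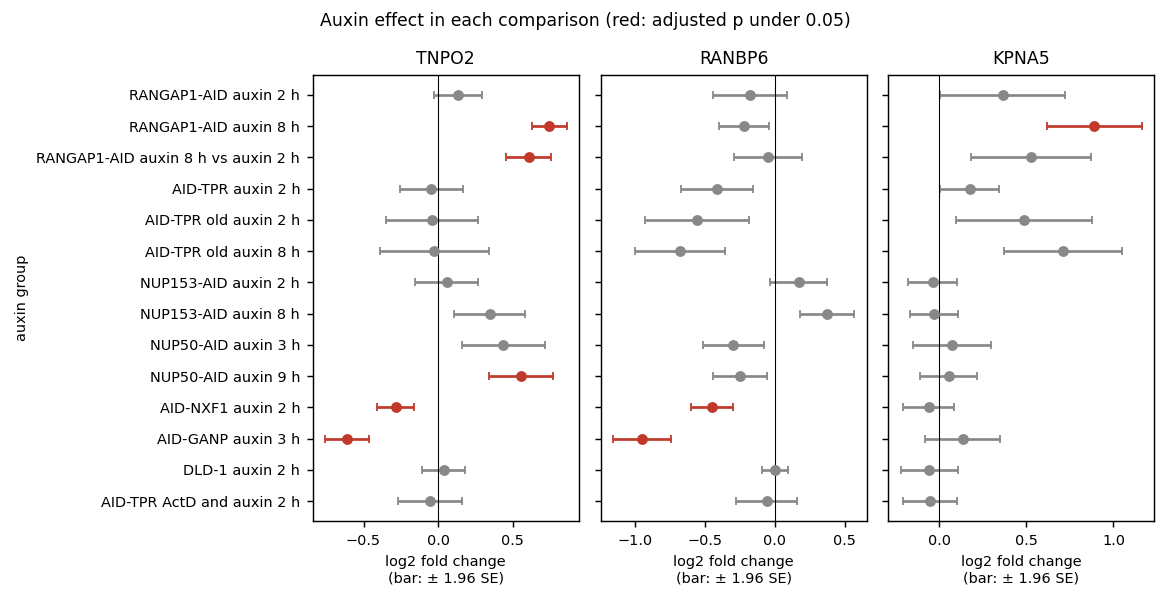
Log2 change with auxin of TNPO2, RANBP6 and KPNA5 in each comparison, with bars for the 95% interval and red for an adjusted p under 0.05. TNPO2 lies above 0 in RANGAP1-AID cells at 8 h (0.75) and below in AID-GANP (-0.61), and KPNA5 is highest in RANGAP1-AID cells at 8 h (0.89).

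Untreated tagged lines were also set against parental cells labelled untreated, in libraries of the same set by their counts. The RCC1 cassette is a difference among others. The labels of the parental libraries are in doubt, given their CYP1A1 values, so auxin may be a further difference. RCC1 was lower in AID-GANP cells, at 144, 146 and 142 CPM against 251, 248 and 253 CPM in the parental line, a log2 difference of -0.81 (SE 0.07, fold 0.57, adjusted p = 4.09e-06). In AID-NXF1 cells it was at 216, 208 and 199 CPM, a difference of -0.28 (adjusted p = 0.00539), and in AID-TPR cells at 238, 191 and 248 CPM, a difference of -0.18 (adjusted p = 0.0465). The AID-GANP and AID-NXF1 libraries were all below the parental ones, and the AID-TPR value was lost in 9 of 12 cases when 1 library was left out (adjusted p up to 0.241), kept only without AID-TPR replicate 3 or AID-NXF1 replicate 1 or 3. SNHG3, which overlaps RCC1 on the same strand, was at 464, 611 and 655 CPM in AID-GANP and 360, 450 and 367 CPM in parental cells, so its counts moved the other way.

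Besides RCC1, AID-GANP cells had 3 further calls, KPNA3 (0.50), RANGRF (0.45) and IPO11 (0.40), 4 in all (12.1%, with 7.99% of all genes called) and 8 on p (24.2%, with 17.7%). KPNA3 was at 94.8, 98.5 and 93.8 CPM against 66.8, 67.8 and 66.7 CPM in parental cells. AID-TPR cells had 3 calls (9.09%, with 25.9% of all), IPO5 (0.50), RANGRF (0.43) and IPO8 (0.40). On p 18 passed (54.5%, with 48.7%), 17 higher (24.7% of all genes were) and RCC1 lower (24.0% of all were). AID-NXF1 cells had 2 calls (6.06%, with 26% of all), RANGRF (0.71) and KPNA4 (0.50), and 14 on p (42.4%, with 48.9%). RANGRF was thus higher in each tagged line, at 14.5 to 19.7 CPM against 10.9 to 12.7 CPM, in libraries where its reads are shared with SLC25A35. The 3 comparisons share the parental libraries. The tag, the cassette, possible auxin in the parental libraries and whatever else differs between the lines cannot be told apart.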

How the data were processed

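Total RNA depleted of ribosomal RNA was sequenced from 66 libraries of DLD-1 cells. The deposited values are raw counts of reads per gene, which per the labels were made by the authors with STAR 2.6.1c and featureCounts 1.5.2 on GRCh38 after base calling with CASAVA 1.8.2, and whether counting used the strand was not given in the sources used here. Each library has counts on 58051 genes, 18943661 to 55411411 in total. Replicates were not pooled, and a test here measures the spread between 3 libraries per group.

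Libraries were grouped by their labels. Genes with over 1 CPM in at least 4 of the 60 libraries without ActD (17812) were tested with edgeR 4.0.16 (R 4.3.3, limma 3.58.1): TMM scaling, a quasi-likelihood fit on the libraries of the comparison, and Benjamini-Hochberg adjustment over all tested genes. Calls needed a fold of 1.3 or more upwards, or 0.7 or less downwards, beside an adjusted p below 0.05. Standard errors were taken from the log2 change and its F statistic, and 95% intervals from a normal approximation. Differences between lines were tested as interactions over the 12 libraries involved at an adjusted p under 0.05, and the untreated lines were set against the parental line in 1 fit over their 4 groups. The scripts were tested on simulated data. Names and positions were matched to GENCODE 44 (56948 genes). Figures and summaries used Python 3.11.15, pandas 2.3.3, numpy 2.4.6 and matplotlib 3.10.9.

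Replicate numbers were used as a block in an alternative fit. They were taken to pair the libraries where the deviations of same-numbered libraries from their group means correlated above 0.1 in all 3 pairs, which held in 8 of 14 comparisons: RANGAP1-AID at 2 h (r = 0.66, 0.38 and 0.74), at 8 h (0.54, 0.24 and 0.64) and between them, AID-TPR, NUP153-AID at 2 h, AID-NXF1, AID-GANP and ActD. The block fit leaves few degrees of freedom per gene, so its very small p-values rest largely on spread shared across genes. The other alternatives were RLE scaling, library sizes alone, DESeq2 1.42.0, other filters, other thresholds on the fold, 1 fit over all libraries without ActD, and leaving out each library.

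The 34 genes, the gene lists beside them and the tests were chosen with earlier results of these data known. Values in every library were to be given for RANGAP1, RCC1, RAN, genes called in a RANGAP1-AID comparison and genes called in 2 or more other comparisons with auxin. RANGRF, RANBP6 and the genes that passed on p alone were added after their values were seen. A list of RANGAP1's partners is not reported here.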

Additional observations from a re-analysis of the deposited data

Results flagged for a closer look

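The change with auxin differed between RANGAP1-AID cells and another line for 7 gene and line pairs, by a test of the difference itself in edgeR (log2 change in RANGAP1-AID cells minus that in the other line). At 2 h against AID-NXF1 cells, TNPO2 differed by 0.42 (SE 0.10, adjusted p = 0.0193) and RANGRF by 0.49 (SE 0.14, adjusted p = 0.0466). Neither gene had a change that passed in RANGAP1-AID cells at 2 h, and both fell in AID-NXF1 cells. At 8 h against the old AID-TPR libraries, TNPO2 differed by 0.77 (SE 0.21, adjusted p = 0.0316) and RANGRF by 0.82 (SE 0.23, adjusted p = 0.0329). At 8 h against NUP153-AID cells, KPNA5 differed by 0.94 (SE 0.17, adjusted p = 0.00195), RANBP6 by -0.58 (SE 0.15, adjusted p = 0.0188) and RANGRF by -0.49 (SE 0.14, adjusted p = 0.0389). KPNA5 was the only 1 of the 7 that passed with each of the 12 libraries left out in turn. Its difference from the old AID-TPR libraries at 8 h did not pass.

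The groups of 3 libraries are too small for a test of single libraries that stand apart.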

How the results depend on the processing

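The 84 values of single genes followed here were those that passed on adjusted p in the main fit. None changed sign over 1326 refits, of which 1106 kept their side of the threshold and 220 lost it. The refits reuse most or all of the same libraries, so a change of sign was unlikely from the start. Values that did not pass were not followed in this way. The counts of calls below are given without the share of all genes. Counts of called genes among the 33 moved as follows (all edgeR unless stated), and the cause was not tested. On adjusted p at any fold the counts were 7 for RANGAP1-AID at 8 h (3 called), 2 for 8 h against 2 h (1), 3 for NUP153-AID at 8 h (1), 3 for NUP50-AID at 9 h (1), 9 for AID-NXF1 (0), 13 for AID-GANP (2), and 18, 14 and 8 for untreated AID-TPR, AID-NXF1 and AID-GANP against the parental line (3, 2 and 4). A fold of 1.3 in either direction gave 2 for AID-NXF1. RLE scaling gave 0 for NUP50-AID at 9 h, 1 for the difference from AID-NXF1 (2) and 4 for untreated AID-NXF1. Library sizes alone gave 1 for old AID-TPR at 8 h (0), 2 for NUP153-AID at 8 h and 3 for NUP50-AID at 9 h. DESeq2 gave 2 for 8 h against 2 h, 3 for old AID-TPR at 8 h, 2 for NUP50-AID at 9 h and 4 for untreated AID-NXF1. Without a filter the counts were 2, 3, 2 and 5 for these, and 1 for NUP50-AID at 3 h (0), and with filterByExpr 0 for NUP50-AID at 9 h. One fit over all libraries without ActD gave 2 for 8 h against 2 h, 2 and 5 for old AID-TPR at 2 h (0) and 8 h, and 2 for NUP50-AID at 9 h.

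The replicate number as a block gave 2 for 8 h against 2 h, 2 for old AID-TPR at 8 h, 0 for NUP153-AID at 8 h, 1 and 2 for NUP50-AID at 3 h and 9 h, and, for differences from RANGAP1-AID, 2 for NUP153-AID at 2 h (0), 10 for AID-NXF1, 1 for the parental line (0) and 5 for old AID-TPR at 8 h (2); it moved no other count of calls by over 1.5 times. In old AID-TPR at 2 h and 8 h, NUP153-AID at 8 h, NUP50-AID and the parental line the samples share only a number.

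Leaving out 1 library gave 3 to 4 for RANGAP1-AID at 8 h, 1 to 3 for 8 h against 2 h, 0 to 5 for old AID-TPR at 8 h, 0 to 2 for NUP153-AID at 8 h, 0 to 4 for NUP50-AID at 9 h and 2 to 3 for AID-GANP. The counts of differences were 0 to 4 against AID-NXF1, 0 to 7 against old AID-TPR and 1 to 3 against NUP153-AID at 8 h, and those of untreated lines 3 to 4, 2 to 6 and 3 to 5. At 3 libraries a group, changes under the fold for a call were passed or missed with the choice of library, and RANGRF rests on a few CPM in the libraries labelled old or ActD or of NUP153-AID and NUP50-AID.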
